A study of Mus musculus with 6 samples.

Results

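Retinoic acid, the active form of vitamin A, drives spermatogonia out of self-renewal and into differentiation and meiosis, and 10 genes of its pathway were examined here in cultured mouse spermatogonial stem cells exposed to bisphenol A (BPA), a plastics monomer. The genes were chosen by name from the deposited table, and all 10 were found among its 34745 genes. They comprise Stra8, the gene stimulated by retinoic acid that germ cells need for meiotic entry, the receptors Rara, Rarb, Rarg, Rxra and Rxrb, the binding protein gene Crabp1, the degrading enzymes Cyp26a1 and Cyp26b1, and the synthetic enzyme Rdh10. RNA was sequenced in 3 libraries from cells given 100 µM BPA for about 4 days and in 3 libraries from untreated cells. Both groups were germline stem cell cultures of DBA/2J X c57BL/6J mice taken at postnatal day 6 and were at passages 15 to 20. The titles of the control libraries name no vehicle, so an effect of a solvent cannot be told apart from that of BPA. The labels do not say that replicates were separate cultures or animals, so each p-value reflects the spread among the libraries alone, which may be technical.

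In this pathway retinol is oxidised to retinaldehyde by RDH10 and its relatives, and retinaldehyde to retinoic acid by ALDH1A enzymes. CRABP proteins carry retinoic acid in the cytoplasm and CYP26 enzymes destroy it. Inside the nucleus a retinoic acid receptor (RARA, RARB or RARG) pairs with a retinoid X receptor (RXRA, RXRB or RXRG) on direct repeats of a short core motif, and ligand binding exchanges corepressors for coactivators. In the testis RARG is best known from undifferentiated spermatogonia and RARA from Sertoli cells, the somatic nurse cells, and from more advanced germ cells.

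The upstream sequences of 3 members are shown because Stra8 had the largest change among the members that passed the test, while Rarb and Cyp26a1 were the members with a direct repeat of the kind that retinoic acid receptors bind. Each runs 5′ to 3′ on the strand of its gene for the 250 bases before a start site annotated by RefSeq (build GRCm38.p6), and capitals mark matches to the motifs searched. These were the core motif AGGTCA, its variant AGTTCA, and the direct repeats DR1, DR2 and DR5, on both strands. A direct repeat is a pair of core motifs in the same orientation, separated by the number of bases in its name, and each motif could have A or G at the first base and G or T at the third base. The Stra8 window lies at chr6:34920698-34920947 on the plus strand, the Rarb window at chr14:16575477-16575726 on the minus strand and the Cyp26a1 window at chr19:37697558-37697807 on the plus strand.
Stra8: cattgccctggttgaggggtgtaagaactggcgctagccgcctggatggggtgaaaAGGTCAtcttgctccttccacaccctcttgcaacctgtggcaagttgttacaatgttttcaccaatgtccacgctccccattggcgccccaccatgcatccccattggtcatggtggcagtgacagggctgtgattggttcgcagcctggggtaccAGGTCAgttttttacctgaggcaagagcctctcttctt
Rarb: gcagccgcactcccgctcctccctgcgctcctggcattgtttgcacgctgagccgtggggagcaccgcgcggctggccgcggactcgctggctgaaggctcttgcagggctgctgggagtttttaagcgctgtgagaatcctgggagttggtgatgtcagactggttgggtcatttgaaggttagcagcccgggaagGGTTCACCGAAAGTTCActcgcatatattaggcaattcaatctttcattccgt
Cyp26a1: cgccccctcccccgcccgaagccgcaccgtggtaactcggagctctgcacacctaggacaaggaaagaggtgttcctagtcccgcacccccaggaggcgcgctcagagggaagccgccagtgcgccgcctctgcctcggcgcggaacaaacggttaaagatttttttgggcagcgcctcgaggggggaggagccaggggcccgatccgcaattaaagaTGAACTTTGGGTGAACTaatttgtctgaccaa
The Stra8 window held AGGTCA at 2 places, from -194 to -189 and from -38 to -33 relative to the start site, and no direct repeat. This RefSeq window lies inside the deposited Stra8 locus, which begins at 34920163. Motifs were searched in windows of 300 bases, the 250 printed and the next 50 past the start. AGGTCA occurred in 16.2% of 32544 RefSeq promoter windows of 300 bases, and among the members also in windows of Rara, Rarg and Rxra. The Rarb window held a DR5 repeat, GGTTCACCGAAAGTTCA, from -53 to -37, and the Cyp26a1 window a DR5 repeat on its opposite strand, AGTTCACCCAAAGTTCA, from -32 to -16. A DR5 repeat was found in 0.0983% of the windows. The variant AGTTCA, present in 14.0% of windows, falls inside both of these repeats. Among the 10 members DR5 was found for Rarb and Cyp26a1 alone in these windows, and DR1 and DR2 for none of them. A match describes letters and does not show a bound site.

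Libraries held 14232872 to 22286517 counts under BPA and 13453280 to 19183912 counts untreated. BPA replicate 2 stood apart from the other BPA libraries in raw counts, with a chi-square per degree of freedom of 69.9 and 95.1 in its pairs. The remaining BPA pair had 23.2 and untreated pairs 19.2 to 25.8. In log2 CPM its correlations with BPA replicates 1 and 3 were 0.916 and 0.930, beside 0.943 for their own pair and 0.893 to 0.925 for untreated pairs. With untreated replicate 1 it was 0.920. Results that rest on BPA replicate 2 are given with and without it. Of the genes tested, 10.6% were past an edgeR quasi-likelihood adjusted p of 0.05, 4.37% higher and 6.28% lower under BPA. That was 580 higher and 835 lower genes, against 831 and 786 when libraries were scaled by total counts alone, a setting that moved the median log2 fold change over tested genes to 0.21, against 0.10. All 12 germ cell markers examined were detected, and their summed level was 1934 to 2317 CPM (counts-per-million values after trimmed-mean scaling) under BPA and 1983 to 2045 CPM untreated. Of these 12 markers 1 passed as higher and 11 did not pass, beside 10.6% of all tested genes called. Groups did not overlap for 2 higher and 1 lower marker, beside 31.3% of all tested genes. Some single markers varied more than the sum. Ddx4 was at 48.2, 9.61 and 41.2 CPM in BPA replicates 1 to 3, against 27.2 to 31.2 CPM untreated. Dazl was at 234.5, 114 and 305 CPM, against 178 to 196 CPM untreated. Zbtb16 was at 34.0, 43.9 and 44.4 CPM, against 30.1 to 50.6 CPM untreated. Of the Sertoli cell markers Fshr, Rhox5 and Nr5a1 had 0 counts in the 6 libraries. In bulk RNA, fewer cells of a type and less RNA per cell cannot be told apart.

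Of the 10 members, 9 had enough counts to be tested. Stra8 and Rara rose under BPA, Crabp1 fell, and 6 did not pass the threshold. These 3 of 9 calls stand beside the 10.6% of all tested genes, and the members were chosen with earlier results known, so the share is a description. All BPA libraries lay on one side of all untreated libraries in 6 of the 9, 3 higher and 3 lower, against 31.3% of all tested genes. The median log2 fold change of the 9 was 0.29, the value of Rdh10, against 0.10 over all tested genes. It was 0.17 without untreated replicate 1, 1.06 without untreated replicate 3 and 0.98 in limma-voom. With BPA replicate 2 left out, 2 members were higher and 3 lower, the added ones being Rarg and Rxra.

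**Figure D1:**
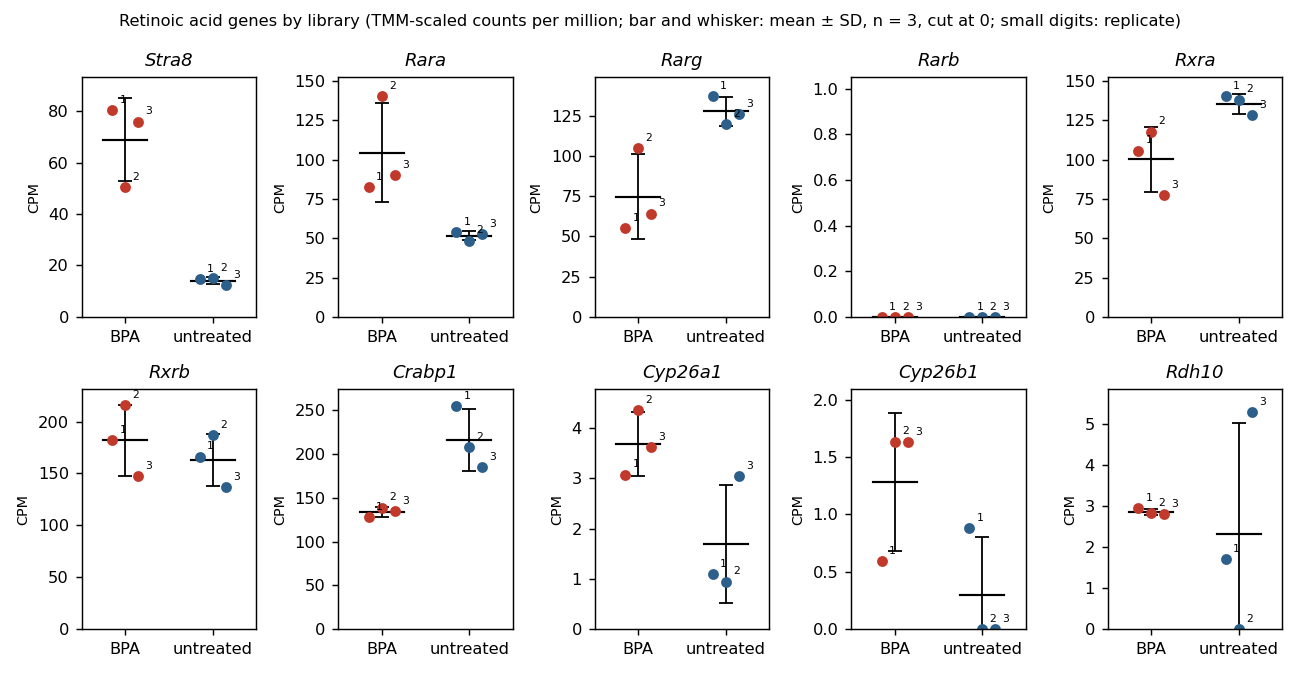
Level of each of the 10 genes in each library, in TMM-scaled counts-per-million values (CPM, linear axis from 0), with BPA libraries in red and untreated libraries in blue; lines and whiskers give the mean and SD of 3 libraries, cut at 0. Stra8, Rara and Cyp26a1 lie higher and Rarg, Rxra and Crabp1 lower in all 3 BPA libraries, and Rarb is at 0 throughout.

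Stra8 (ENSMUSG00000029848, mm10 chromosome 6, 34920163 to 34939344, protein coding) is the pathway's best known germ cell target and encodes a nuclear protein that, with its partner MEIOSIN, switches on meiotic genes. Its counts were 1229, 1017 and 1861 in BPA replicates 1 to 3, against 267, 192 and 171 in untreated replicates 1 to 3. Scaled for depth this was 80.5, 50.4 and 75.9 CPM under BPA and 14.6, 15.1 and 12.4 CPM untreated. All 3 BPA libraries were thus above all 3 untreated libraries, and the lowest BPA library was replicate 2. The mean was 68.9 ± 16.2 CPM under BPA and 14.0 ± 1.43 CPM untreated (SD, n = 3 each), a 4.91-fold difference (log2 2.29, SE 0.26, edgeR adjusted p = 0.000232). The call held in each of the 16 alternative settings, with log2 values of 2.18 to 2.48.

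The genes whose log2 CPM followed Stra8 most closely over the 6 libraries, among 7710 ranked genes of at least 10 CPM, were Cdkn1b (Pearson r = 0.996), which encodes the cell cycle inhibitor p27, Gyg (0.995), the primer of glycogen synthesis, Lck (0.993), a kinase known from T cells, Nars (0.990), an aminoacyl-tRNA synthetase, and Arl14ep (0.989). These points share 2 treatment groups, so a high r reflects the difference between groups as well as spread within them, and no p is given. In the edgeR fit the log2 fold changes were 1.87 for Cdkn1b, 1.62 for Gyg, 2.17 for Nars and 2.88 for Arl14ep, all past the threshold, and 0.97 for Lck, which was not (edgeR adjusted p = 0.0681).

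Among the receptors for retinoic acid Rara rose, and Rarg had lower values that lay just outside the threshold. Rara (ENSMUSG00000037992, chromosome 11, 98927818 to 98974942) had 82.6, 141 and 89.9 CPM in BPA replicates 1 to 3, against 53.9, 48.5 and 52.4 CPM in untreated replicates 1 to 3. Every BPA library was above every untreated library, with BPA replicate 2 highest. The mean was 104 ± 31.6 CPM under BPA and 51.6 ± 2.79 CPM untreated (log2 fold change 1.02, SE 0.22, edgeR adjusted p = 0.0141). When untreated replicate 1 or 2 was left out Rara no longer passed (edgeR adjusted p = 0.0757 and 0.0775), and was at 0.74 without BPA replicate 2 (0.00631). Of 5 tested markers of Sertoli cells 2 rose with it. Sox9 rose to 24.5 ± 5.01 CPM under BPA, against 8.64 ± 0.550 CPM untreated (edgeR adjusted p = 0.0104). Without untreated replicate 1 Sox9 did not pass (edgeR adjusted p = 0.0594). Clu rose to 93.1 ± 12.4 CPM under BPA, against 36.8 ± 5.95 CPM untreated (0.00199). The other 3 did not pass, among them Gata4 at a log2 value of 1.88 (0.138) and Wt1 at 0.91 (0.278). Log2 values were above 0 for 4 of the 5. The 11 listed markers summed to 119 to 156 CPM under BPA and 45.9 to 58.0 CPM untreated, and most of that sum was Clu and Sox9. Fshr, the receptor that defines Sertoli cells, had 0 counts in all libraries and Amh averaged 0.224 CPM under BPA and 0.146 CPM untreated. Their part in the Rara result was not tested.

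Rarg (ENSMUSG00000001288, chromosome 15, 102234938 to 102257517) had 55.0, 105 and 64.2 CPM in BPA replicates 1 to 3, against 138, 120 and 126 CPM in untreated replicates 1 to 3. The BPA libraries were all below the untreated ones, replicate 2 by the least. Means were 74.7 ± 26.6 CPM under BPA and 128 ± 8.98 CPM untreated, and the log2 fold change of -0.77 (SE 0.23, 95% interval -1.28 to -0.27) lay just outside the threshold (edgeR adjusted p = 0.0522). In 10 of 16 alternative settings it passed as lower, with log2 values of -1.10 to -0.59 over all 16. Without BPA replicate 2 it was at -1.10 (edgeR adjusted p = 0.00038). With each of the other libraries left out in turn Rarg did not pass (edgeR adjusted p = 0.114 to 0.204).

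A comparison inside each library needs no scaling between libraries, and it separated the groups with little spread. Per length, in the deposited FPKM (counts divided by gene length and library total), Rara was at 15.6, 23.2 and 17.4 in BPA replicates 1 to 3 and at 9.01, 8.07 and 9.13 in untreated replicates 1 to 3. Rarg was at 10.5, 17.5 and 12.5 FPKM in BPA replicates and at 23.2, 20.1 and 22.2 FPKM in untreated replicates. The ratio of Rara to Rarg was therefore 1.49, 1.33 and 1.39 under BPA and 0.388, 0.401 and 0.411 untreated. Rara made up 58.3% ± 1.39 of the Rara and Rarg level under BPA and 28.6% ± 0.581 untreated (SD, n = 3 each), so the more abundant of these receptor transcripts was Rara in every BPA library and Rarg in every untreated library. BPA replicate 2, which had more of both transcripts than its fellow BPA libraries, had a ratio next to theirs. The difference in log2 ratio was 1.81, and 1.76 to 1.84 without each library in turn. An exact two-sided permutation test gave p = 0.1, the smallest that 3 libraries against 3 allow (BH-adjusted 0.1 over 3 such ratios). This ratio was chosen after the values were seen. The genes had similar lengths in the table, 5694 and 5637 bases, and similar GC contents, 59.2% and 58.8% for Rara and Rarg. The summed level of both was 26.0, 40.7 and 29.9 FPKM under BPA and 32.2, 28.2 and 31.4 FPKM untreated, with overlapping groups.

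**Figure D2:**
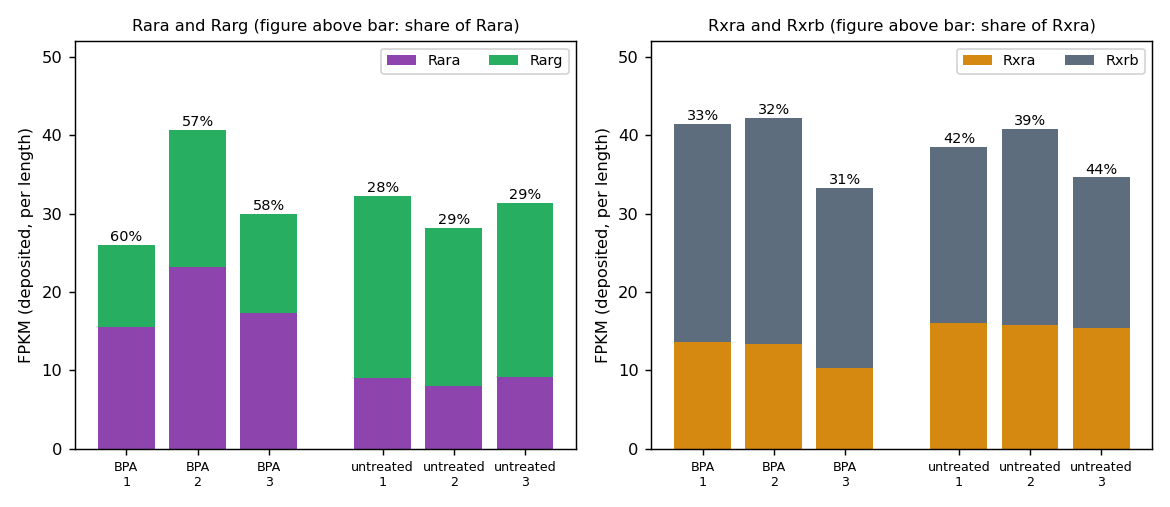
Deposited FPKM of Rara and Rarg (left) and of Rxra and Rxrb (right), stacked for each library, with the share of Rara or Rxra printed above each bar. Rara takes 57.0% to 59.8% of the Rara and Rarg level in BPA libraries and 28.0% to 29.1% in untreated libraries.

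Rarb (ENSMUSG00000017491, chromosome 14, 16430842 to 16575472), the receptor gene whose upstream DR5 repeat is printed above and a standard reporter of retinoic acid exposure, had 0 counts in all 6 libraries. A count of 0 allows up to 0.0518 CPM, unscaled, over the BPA libraries and 0.0645 over the untreated ones, for counting error only. In GENCODE vM21 38.4% of its exon bases overlap exons of other genes, mainly Top2b on the opposite strand, and the kit does not mark strand, so reads there can be lost to either gene. The remaining exon bases are free of such overlap.

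Neither Rxra nor Rxrb, the retinoid X receptors among the members, passed the threshold. Rxra had 106, 118 and 77.4 CPM in BPA replicates 1 to 3, against 140, 138 and 128 CPM in untreated replicates 1 to 3. The groups did not overlap, but the log2 fold change of -0.44 (SE 0.19, 95% interval -0.84 to -0.03) did not pass (edgeR adjusted p = 0.166). Without BPA replicate 2 Rxra passed as lower, at -0.57 (edgeR adjusted p = 0.0221). This was the only 1 of 16 alternative settings in which Rxra passed, with log2 values of -0.567 to -0.275 over all 16. Rxrb had 182, 216 and 147 CPM in BPA replicates 1 to 3, against 166, 187 and 137 CPM in untreated replicates 1 to 3. These groups overlapped, and the 95% interval of the log2 fold change was -0.25 to 0.56 (edgeR adjusted p = 0.653). The remaining receptor of this class, Rxrg, fell to 6.15 ± 0.671 CPM under BPA, against 24.4 ± 9.95 CPM untreated (log2 -1.99, SE 0.37, edgeR adjusted p = 0.00579), and passed in all 16 alternative settings.

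**Figure D3:**
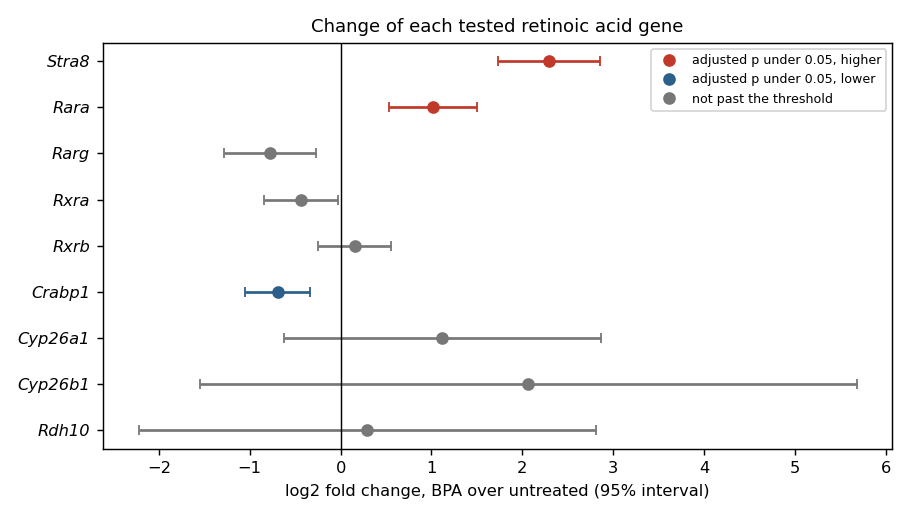
Log2 fold change of BPA over untreated with its 95% interval for the 9 tested genes (edgeR); red is higher, blue lower and grey not past an adjusted p of 0.05. Stra8 lies at 2.29 with an interval of 1.74 to 2.85, and the intervals of Cyp26a1, Cyp26b1 and Rdh10 are wide.

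Crabp1 (ENSMUSG00000032291, chromosome 9, 54764748 to 54773110), which encodes a cytoplasmic carrier of retinoic acid, was by far the most abundant member per length, at 173 FPKM on average under BPA and 259 FPKM untreated. Its levels were 128, 139 and 135 CPM in BPA replicates 1 to 3, against 255, 208 and 186 CPM in untreated replicates 1 to 3. All BPA libraries were lower, and they lay closer together than the untreated ones. Crabp1 fell to 134 ± 5.75 CPM under BPA, against 216 ± 35.4 CPM untreated (log2 -0.69, SE 0.16, edgeR adjusted p = 0.0201). Leaving out BPA replicate 1, BPA replicate 3, untreated replicate 1 or untreated replicate 2 each ended the call, with a highest edgeR adjusted p of 0.133. After each library was corrected for GC content and gene length the value was -0.13 (edgeR adjusted p = 0.589). Crabp1 has a length of 802 bases in the table, against a median of 5118 over genes with at least 10 counts on average, and a GC content of 57.4% against 50.5%. Among the genes nearest to it in pattern were Npc2 (Pearson r = 0.994), Emc6 (0.993), Atox1 (0.990) and Thap1 (0.988), with the same limits as for Stra8.

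Its relative Crabp2, which delivers retinoic acid to the receptors, had 11.2, 13.3 and 14.0 CPM in BPA replicates 1 to 3, against 41.0, 43.6 and 29.5 CPM in untreated replicates 1 to 3. No BPA library reached the lowest untreated one. Crabp2 fell by 1.57 on the log2 scale (SE 0.28, edgeR adjusted p = 0.00442) and passed in all 16 alternative settings, the GC and length correction included.

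Cyp26a1, Cyp26b1 and Rdh10, the members that encode enzymes, had fewer than 100 counts in every library. Cyp26a1 (chromosome 19, 37697808 to 37701528), the degrading enzyme gene with the DR5 repeat printed above, had 47, 88 and 89 counts in BPA replicates 1 to 3, against 20, 12 and 42 counts in untreated replicates 1 to 3. That was 3.08, 4.36 and 3.63 CPM under BPA and 1.10, 0.942 and 3.05 CPM untreated. The groups did not overlap, though untreated replicate 3 came close to BPA replicate 1, and the log2 fold change of 1.12 had a 95% interval of -0.62 to 2.86 (edgeR adjusted p = 0.422). Cyp26b1 (chromosome 6, 84571414 to 84593908), the CYP26 enzyme known for shielding germ cells from retinoic acid, had 9, 33 and 40 counts in BPA replicates 1 to 3, against 16, 0 and 0 counts in untreated replicates 1 to 3, with overlapping groups (edgeR adjusted p = 0.479). Rdh10 (chromosome 1, 16105774 to 16133734) had 45, 57 and 69 counts in BPA replicates 1 to 3, against 31, 0 and 73 counts in untreated replicates 1 to 3. Untreated replicate 3 was its highest library and untreated replicate 2 its lowest, and the 95% interval was -2.22 to 2.81 (edgeR adjusted p = 0.909). Without untreated replicate 2 the sign of Rdh10 turned, at -0.28. At this depth a doubling of these 3 genes was within their intervals.

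Ordered by mean FPKM, the BPA libraries ran Crabp1, Stra8 (28.8), Rxrb (26.5), Rara (18.7), Rarg (13.5), Rxra (12.5), Cyp26a1 (2.14), Rdh10 (0.536) and Cyp26b1 (0.145). In untreated libraries the order was Crabp1, Rxrb (22.3), Rarg (21.9), Rxra (15.8), Rara (8.73), Stra8 (5.36), Cyp26a1 (0.932), Rdh10 (0.413) and Cyp26b1 (0.0306), with Rarb at 0 in both. Stra8 thus stood in the sixth place untreated and in the second under BPA, where its libraries overlapped those of Rxrb and of Rara. Rara also overlapped Rxrb and Rarg across BPA libraries, and Rarg overlapped Rxra. Across untreated libraries Rxrb overlapped Rarg, Cyp26a1 overlapped Rdh10, and Rdh10 overlapped Cyp26b1.

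**Figure D4:**
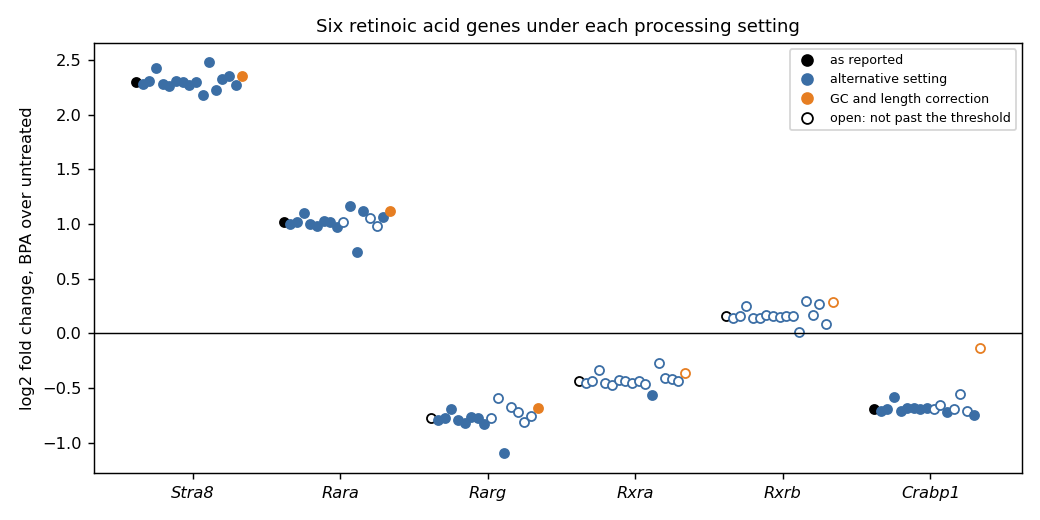
Log2 fold change of BPA over untreated for 6 genes under the reported setting (black) and 16 alternatives (blue, with the GC and length correction in orange); filled points passed the threshold. Stra8 stays between 2.18 and 2.48, and Crabp1 moves to -0.13 under the correction.

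Other genes of retinoid transport, storage, synthesis and breakdown gave 1 call, that of Crabp2, among 15 tested of 32 in the table, beside 10.6% of all tested genes. Their median log2 fold change was -0.21, against 0.10 over all tested genes. It was -0.13 without untreated replicate 2, -0.39 without untreated replicate 3 and -0.12 with scaling by library size alone. Chosen after its values were seen, the synthetic enzyme gene Aldh1a2 was at 15.6 ± 1.95 CPM under BPA and 17.2 ± 6.91 CPM untreated (edgeR adjusted p = 0.857). Lrat, which stores retinol as esters, had 0 counts in every library.

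Of 22 coregulator genes, a list that included Rxrg, 4 were higher and 1 lower, beside 4.37% and 6.28% of all tested genes, with a median log2 fold change of 0.65, against 0.10 over all tested genes. The coactivator genes Ncoa2 and Ncoa3 rose by 0.91 and 0.62 on the log2 scale (edgeR adjusted p = 0.0425 and 0.0471), and Tbl1xr1, whose protein helps exchange corepressors for coactivators on receptors, by 1.01 (0.0424). Its relative Tbl1x rose to 95.5 ± 14.5 CPM under BPA, against 47.8 ± 3.17 CPM untreated (edgeR adjusted p = 0.00713). The lower gene was Rxrg. Leaving out BPA replicate 2 gave 7 higher coregulator genes. There was 1 when BPA replicate 1, BPA replicate 3 or untreated replicate 1 was left out, 0 for untreated replicate 2 and 2 for untreated replicate 3. Correcting for GC content and length left 1 higher, Tbl1x, and 2 lower, with a median of 0.40. With untreated replicate 2 left out Tbl1x had an edgeR adjusted p of 0.0507. The corepressor gene Ncor1, chosen after its values were seen, had a log2 fold change of 0.12 (edgeR adjusted p = 0.888). Hdac3, of the same list and picked in the same way, was lower in every BPA library but did not pass (log2 -0.40, edgeR adjusted p = 0.107). It passed as lower in DESeq2, without BPA replicate 2 and with the GC and length correction.

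Among 7 tested nuclear receptors that also pair with RXR, Nr1h2, the ubiquitous liver X receptor, fell to 78.9 ± 22.6 CPM under BPA, against 144 ± 5.34 CPM untreated (log2 -0.87, SE 0.21, edgeR adjusted p = 0.0204), and the other 6 did not pass. That is 1 of 7, beside 10.6% of all tested genes. The median of the list was -0.44, against 0.10 over all tested genes, and was -0.19 without BPA replicate 3, -0.24 without untreated replicate 2 and -0.01 with no low-count filter. Its call held without BPA replicate 2 and was lost without each of the other libraries in turn, with a highest edgeR adjusted p of 0.0978.

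Of 19 tested genes of the retinoic acid-driven differentiation and meiotic programme of germ cells, 4 passed the threshold, all of them higher, beside 4.37% of all tested genes that were higher. The median log2 fold change was 0.68, also with Prdm9 at its bound, against 0.10 over all tested genes, and was 0.25 without BPA replicate 1. Sohlh1, which encodes a germ cell transcription factor needed for spermatogonial differentiation, rose to 336 ± 42.6 CPM under BPA, against 210 ± 26.3 CPM untreated (edgeR adjusted p = 0.0191). The recombination genes Tex11 and Mei4 rose by 2.43 and 1.82 (edgeR adjusted p = 0.0203 and 0.0361). Tex11 was at 59.8, 7.63 and 37.2 CPM in BPA replicates 1 to 3 and at 4.77, 6.44 and 8.27 CPM in untreated replicates 1 to 3, so that BPA replicate 2 lay within the untreated range. Prdm9, which marks recombination sites, had 79 counts in BPA libraries and 0 in untreated libraries, and was at least 19.7-fold higher when the untreated group was set to a floor of 3 counts in all (edgeR adjusted p = 0.0496). The Prdm9 call was lost without each of the 6 libraries in turn (edgeR adjusted p of 0.0598 to 0.193) and in limma-voom (0.0723). Of these genes 0 passed as higher without BPA replicate 1 or untreated replicate 1 or 2, 1 without BPA replicate 3 or untreated replicate 3, 5 without BPA replicate 2, and 1 in limma-voom.

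Other members of that programme, chosen after their values were seen, did not pass. Gm4969, listed by RefSeq as Meiosin, the partner of STRA8, was at 14.5 ± 2.57 CPM under BPA and 7.63 ± 2.67 CPM untreated (edgeR adjusted p = 0.163), and Dmc1, a meiotic recombinase gene, at 13.4 ± 2.36 CPM under BPA and 5.83 ± 1.62 CPM untreated (edgeR adjusted p = 0.074), both without overlap of the groups. Rec8, a meiotic cohesin gene that also responds to retinoic acid, was at 97.9 ± 11.1 CPM under BPA and 91.0 ± 6.47 CPM untreated. Kit, the receptor gene that marks differentiating spermatogonia, was at 14.8 ± 4.20 CPM under BPA and 17.5 ± 6.75 CPM untreated, with a 95% interval of -1.05 to 0.56 on the log2 scale.

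Genes widely induced by retinoic acid in embryonic cells gave 2 calls, both lower, among 13 tested of 25, beside 10.6% of all tested genes called and 6.28% lower. Their median log2 fold change was 0.01, and -0.16 to 0.12 without each library in turn, against 0.10 over all tested genes. Hoxb4 fell to 41.0 ± 4.98 CPM under BPA, against 73.8 ± 5.96 CPM untreated (edgeR adjusted p = 0.0197). Stra13, whose protein CENP-X acts at centromeres and in DNA repair, fell to 29.8 ± 5.42 CPM, against 56.3 ± 15.5 CPM untreated (edgeR adjusted p = 0.0434). Whether this CENP-X gene responds to retinoic acid was not tested. Groups did not overlap for 2 higher and 2 lower genes of the list. Bhlhe40 lay higher in all BPA libraries, at 20.3 ± 6.01 CPM, against 9.97 ± 3.50 CPM untreated. It did not pass (log2 1.03, edgeR adjusted p = 0.113), and its values were known when it was picked. Hoxb1, which carries retinoic acid response elements, was at 7.21 ± 2.09 CPM under BPA and 7.11 ± 1.49 CPM untreated. Neither Hoxb4 nor Stra13 passed when BPA replicate 1, BPA replicate 3, untreated replicate 1 or untreated replicate 2 was left out.

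**Figure D5:**
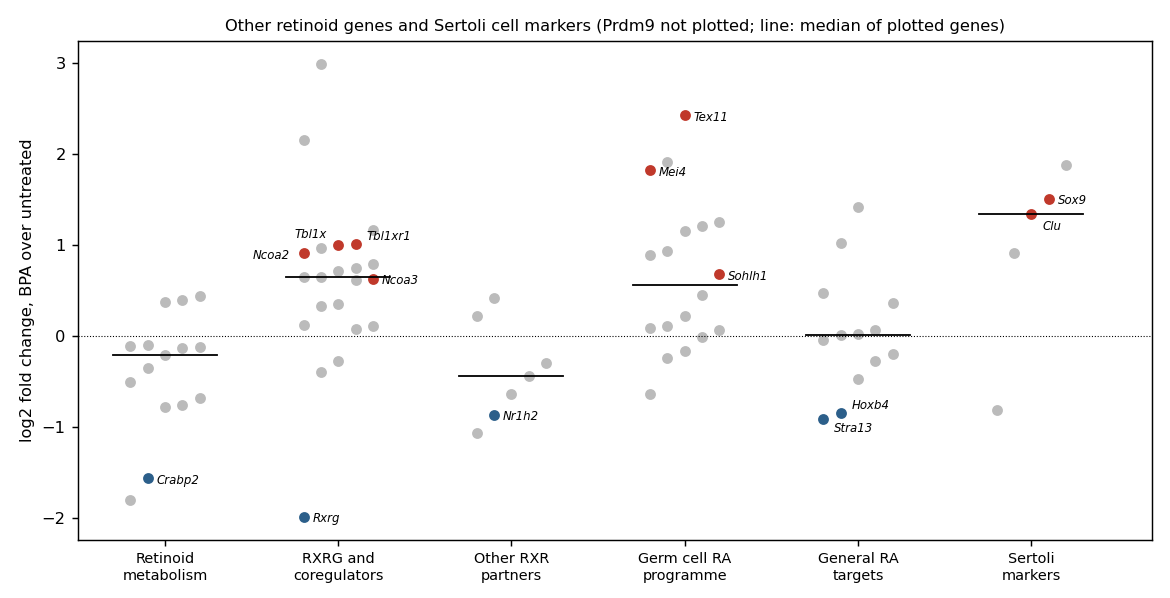
Log2 fold change of BPA over untreated for each tested gene of 5 lists of retinoid genes and of the Sertoli cell markers; red and blue points passed an adjusted p of 0.05 as higher or lower, grey points did not, and black lines are medians of the plotted genes, which leave out Prdm9. Most calls in the coregulator and germ cell lists are higher, and those in the metabolism and general target lists are lower.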

How the data were processed

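Counts per gene and FPKM were deposited by the authors for 6 libraries. Total RNA was made into libraries with an Illumina TruSeq RNA v2 kit, which does not mark strand, per the labels' protocols. TopHat2 2.0.9, HTSeq and mm10 are named in the submitters' processing notes, while the sources used here give neither the annotation release nor the strand setting. The deposited FPKM equal counts over gene length and the column total, and were used only for levels per length. Columns were matched to samples by the code in the titles.

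The deposited counts were filtered with filterByExpr, leaving 13287 genes, scaled by edgeR's TMM method and fitted with edgeR 4.0.16 (quasi-likelihood, no block, Benjamini-Hochberg threshold 0.05) in R 4.3.3. The standard error is the log2 fold change over the square root of F. Alternatives used DESeq2 1.42.0, limma-voom 3.58.1, other scalings and filters, a replicate block, each library left out and, added after the results were seen, a lowess correction (span 0.3) for GC content and length. Scripts were tested on simulated data. Members, lists and tests were chosen with earlier results of these data known. All 10 members are named, and from each other list the genes past the threshold; some other genes are not reported here. Deposited loci were used, and for 7 of 10 members they equal those in GENCODE vM21. Promoters come from RefSeq (GRCm38.p6). The common biological coefficient of variation was 0.438. Floors cover counting error only.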

Additional observations from a re-analysis of the deposited data

How the results depend on the processing

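Stra8 kept its call under all 16 alternatives. Across all genes the number higher was 938 in DESeq2, 927 with no low-count filter, 900 with the GC and length correction and 155 at an FDR of 0.01, where the number lower was 322. Without each library in turn, 162 to 1207 genes were higher and 282 to 1600 lower, the upper ends without BPA replicate 2. Of the members, 2 were higher and 2 lower with DESeq2 size factors, upper quartile or library size scaling, DESeq2, limma-voom, a minimum of 1 CPM in 3 samples, no low-count filter and the replicate block, the added lower gene being Rarg. At an FDR of 0.01 it was 1 higher and 0 lower, and without each library in turn 1 to 2 higher and 0 to 3 lower. Over the 5 other lists 8 genes were higher and 5 lower. The number higher was 4 in limma-voom and 1 at an FDR of 0.01, where 2 were lower, and without each library in turn 0 to 13 were higher and 2 to 7 lower. Rdh10 turned to -0.28 without untreated replicate 2 and was at 1.75 without untreated replicate 3. The cause of these changes was not tested. Values of single genes and ratios were set against each alternative, and 276 cases were unchanged. For a gene this means the same sign and the same call, or no call in both. For a ratio, which has no call, it means a shift smaller than the larger SD within a group. Genes lost the call in 77 cases, gained it in 11 and changed sign in 1. Same-numbered libraries deviated with correlations of -0.021, 0.061 and 0.067 for replicates 1 to 3. BPA replicates 2 and 3 correlated best with the untreated library of their own number, and BPA replicate 1 with untreated replicate 3 (0.028). Correlations this small cannot show whether libraries of the same number shared a culture or batch. The replicate block gave 721 higher and 985 lower genes, and a median of 0.97 over the members. DESeq2 gave no adjusted p for Rdh10 and Cyp26b1, and Cyp26b1 was not tested with at least 1 CPM in 3 samples. Counts below about 100 per library limit Cyp26a1, Cyp26b1 and Rdh10.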

Other observations

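Ratios of other pairs of retinoid genes inside each library, chosen after the values were seen, also separated the groups. Rxra made up 31.9% ± 1.09 of the Rxra and Rxrb level per length under BPA and 41.6% ± 2.86 untreated (SD, n = 3 each), with a difference in log2 ratio of -0.61. Crabp1 was 22.6, 20.7 and 19.1 times Crabp2 per length in BPA replicates 1 to 3 and 12.3, 9.46 and 12.5 times in untreated replicates 1 to 3. The GC and length correction moved the log2 fold change of Crabp1 from -0.69 to -0.13 and that of Crabp2 from -1.57 to -1.43. The size of this difference in ratio therefore depends on that correction, which the ratio does not include. Each of these exact two-sided permutation tests gave p = 0.1, the smallest that 3 libraries against 3 allow (BH-adjusted 0.1).

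Markers of cell types other than germ and Sertoli cells summed to less than the germ cell markers in every library. The lists differ in size, so these sums do not give shares of cells. Single genes could reach the level of a germ cell marker. Col1a1 of fibroblasts was at 33.5 ± 10.2 CPM under BPA and 49.8 ± 9.95 CPM untreated. Ddx4 was at 33.0 ± 20.6 CPM under BPA and 29.1 ± 2.00 CPM untreated. Fibroblast markers summed to 121 to 201 CPM under BPA and 162 to 199 CPM untreated, macrophage markers to 28.3 to 46.1 CPM under BPA and 53.7 to 57.0 CPM untreated, and endothelial markers to 5.11 to 13.2 CPM under BPA and 14.1 to 20.8 CPM untreated. Peritubular myoid markers summed to 21.4 to 33.6 CPM under BPA and 28.7 to 50.1 CPM untreated. Of these Tagln passed as lower (log2 -1.84, edgeR adjusted p = 0.0333), and it did so in 9 of 16 alternative settings. Its call was lost without BPA replicate 1 or 3 or untreated replicate 1 or 2. Leydig cell markers summed to 0.982 to 1.30 CPM under BPA and 0 to 0.986 CPM untreated, with Cyp17a1, Hsd3b1, Insl3 and Lhcgr at 0 counts in all libraries.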
